A study of Homo sapiens with 12 samples.

Results

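The genes described here are 51 genes of DNA replication and homologous repair, chosen by symbol from a fixed list. The list was set with earlier results of these data known. All 51 were found in both deposited tables of gene expression, which hold 16760 and 17442 genes and share 16426. By role, 31 act at origins and forks, 5 supply nucleotides, 3 are E2F transcription factors, 3 act in chromatin assembly behind the fork, and 9 serve homologous repair or the fork checkpoint. RNA was sequenced from NCI-H1975 and HCC827, 2 established human lines of non-small cell lung cancer with mutations in EGFR, a growth factor receptor. In the first experiment both lines were given DMSO or 18E, a compound known here by its code only, at 2.5 µM or 5 µM, and the labels of the 18E samples state 24 h. In the second both lines were given the control siRNA siCON or the siRNA siDYN-1 or siDYN-2, and the labels of the siDYN samples state 48 h. Autophagy and LIC1 stand in the series title, and LIC1 is another name of DYNC1LI1, a light intermediate chain of the dynein motor. Each of the 12 combinations of line and treatment was sequenced as 1 library, so no condition has a replicate within a line.

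Before a cell copies its DNA, the origin recognition complex, CDC6 and CDT1 load the MCM helicase at origins, and CDC45 and the GINS complex then turn the helicase on. Polymerase alpha and primase lay down primers, polymerases epsilon and delta extend them on the PCNA clamp, and FEN1 and LIG1 join the fragments. Many of these genes, with those for nucleotide supply and for repair of broken forks, are transcribed in late G1 and S phase under E2F factors, so in a proliferating line their mRNA level is tied to the share of cells in those phases. In bulk RNA, fewer cells in a phase and less RNA per cell cannot be told apart.

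Because E2F factors are a shared regulator of these genes, the start regions of several members are shown. RefSeq promoter windows (GRCh38.p14), from 250 bases before to 50 bases after each annotated start, were found for 45 of the 51 members (62 windows). Each was searched on both strands for the E2F-type motifs TTTCCCGC, TTTGGCGC, TTTCGCGC and TTTGCCGC, whose matches can overlap each other. A match lay in 25 of the 62 member windows (40.3%), from 24 genes, against 3.31% of all 35116 windows and 5.04% of the 14120 windows of genes tested with 18E. The box CCAAT, searched the same way, lay in 56.5% of member windows and 34.6% of all windows. The 160 bases before the start are printed 5′ to 3′ on the gene's strand for 5 members with matches and for 2 without, with E2F-type matches in capitals. MCM6 was chosen because it has 2 capital runs, each made of 2 overlapping matches, POLA1 and PCNA as fork components, E2F1 and E2F2 as E2F factors themselves, and RRM1 and ORC6 as members without a match that differ in their response to 18E. The windows are chr2:135876444-135876603 for MCM6, minus strand; chrX:24693758-24693917 for POLA1, plus strand; chr20:5126623-5126782 for PCNA, minus strand; chr20:33686386-33686545 for E2F1, minus strand; chr1:23531234-23531393 for E2F2, minus strand; chr11:4094525-4094684 for RRM1, plus strand; and chr16:46689499-46689658 for ORC6, plus strand.
MCM6: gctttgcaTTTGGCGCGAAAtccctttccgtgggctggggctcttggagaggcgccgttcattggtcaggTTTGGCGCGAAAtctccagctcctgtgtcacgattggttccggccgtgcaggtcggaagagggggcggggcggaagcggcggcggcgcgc
POLA1: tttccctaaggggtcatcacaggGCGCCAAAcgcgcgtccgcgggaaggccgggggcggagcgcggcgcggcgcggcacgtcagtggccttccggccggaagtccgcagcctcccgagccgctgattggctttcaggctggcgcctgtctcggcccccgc
PCNA: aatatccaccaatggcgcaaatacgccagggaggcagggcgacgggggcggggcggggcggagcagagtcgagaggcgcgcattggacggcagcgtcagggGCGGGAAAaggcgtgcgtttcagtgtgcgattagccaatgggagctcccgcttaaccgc
E2F1: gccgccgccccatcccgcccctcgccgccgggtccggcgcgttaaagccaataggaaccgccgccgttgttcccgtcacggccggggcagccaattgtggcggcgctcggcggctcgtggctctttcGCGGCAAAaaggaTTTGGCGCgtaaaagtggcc
E2F2: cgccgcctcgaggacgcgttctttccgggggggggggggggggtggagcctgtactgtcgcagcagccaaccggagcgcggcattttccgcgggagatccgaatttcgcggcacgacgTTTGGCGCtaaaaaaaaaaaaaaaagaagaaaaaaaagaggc
RRM1: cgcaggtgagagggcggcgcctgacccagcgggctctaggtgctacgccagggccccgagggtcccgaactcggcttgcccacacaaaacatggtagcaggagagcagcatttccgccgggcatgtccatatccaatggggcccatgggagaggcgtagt
ORC6: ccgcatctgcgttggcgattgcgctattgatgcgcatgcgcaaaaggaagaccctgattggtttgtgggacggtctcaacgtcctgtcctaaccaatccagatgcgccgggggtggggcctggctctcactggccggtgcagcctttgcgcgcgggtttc

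In MCM6 the 2 runs begin 152 and 90 bases before the start and have the same 12 letters. The run in POLA1 begins 137 bases before the start and that in PCNA 59 bases before it. E2F1 has 2 separate matches, 33 and 20 bases before the start, and E2F2 has 1 at 42 bases. A match describes the letters in this window only, and whether a factor bound there was not measured.

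Values were FPKM, a fragment count adjusted for transcript length and library size, and the depth behind them is unknown. A change is log2(FPKM + 1) of a treated library minus that of the control of its own line and table, a scale that understates changes of low genes. A gene was tested where 2 or more of a table's 6 libraries reached 1 FPKM, which left 11953 genes with 18E and 11718 with siDYN. All 51 members passed this filter with 18E and 50 with siDYN, where BRCA2 was at 0.77 FPKM or lower. Total FPKM per library ran from 486409 to 685680 and genes listed at 0 from 534 to 2212. HCC827 with 18E at 5 µM had the 534, against 898 to 1395 in the other 5 libraries of its table. All 6 epithelial markers were expressed in all libraries, with the lowest value 7.14 FPKM, and the 9 markers of blood, endothelial and stromal cells found in the tables reached at most 1.47 FPKM. DYNC1LI1 was at 23.7, 5.10 and 3.04 FPKM in NCI-H1975 with siCON, siDYN-1 and siDYN-2, and at 16.3, 2.42 and 1.22 FPKM in HCC827, so every siDYN library was low in it. Under 18E it was at 21.4, 26.5 and 29.4 FPKM in NCI-H1975 and at 13.6, 13.1 and 25.0 FPKM in HCC827 with DMSO, 2.5 µM and 5 µM.

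With DMSO the members spanned a wide range of levels per length, from 1.52 FPKM for BRCA2 in HCC827 to 378 FPKM for MCM7 in NCI-H1975. PCNA, TK1, RFC2 and RRM2 followed MCM7 in NCI-H1975 with 249.9, 190.5, 144 and 130.2 FPKM. Of 50 members tested in both tables, 30 were higher in NCI-H1975 than in HCC827 in both control pairs, against 50.8% of all 11449 genes tested in both. By at least 0.5 on the log2 scale in both pairs, 13 were higher in NCI-H1975 (background 23.2%) and 3 in HCC827 (background 14.9%). The 13 are near the share of all genes. The median of NCI-H1975 minus HCC827 over the 50 members was 0.41 with DMSO, where all genes had 0.14. With siCON it was 0.15, where all genes had 0.14. CDC45 was higher in NCI-H1975 by 1.52 with DMSO and 1.37 with siCON, and MCM5 by 1.18 and 1.33. The 3 higher in HCC827 were the origin recognition subunits ORC1 and ORC6 and the polymerase epsilon catalytic subunit POLE. ORC6 stood at -0.69 and -0.98 and POLE at -0.81 and -1.01 for NCI-H1975 minus HCC827.

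With 18E at 5 µM, most of these genes were lower than with DMSO in both lines. Below control were 44 of 51 members in NCI-H1975 (background 58.1%) and 48 in HCC827 (background 57%). Below control in both lines were 44 of 51 members (86.3%), against 40.8% of all genes, and 17 were lower by at least 0.5 in both lines, against 7.6% of all genes. The median change of the members was -0.38 in NCI-H1975, where the median of all genes was -0.07, and -0.88 in HCC827, where it was -0.10. In NCI-H1975, 18 members were lower by at least 0.5 (background 13.3%), 1 of them, E2F8, by at least 1 (background 1.13%). In HCC827, 42 were lower by at least 0.5 (background 25.8%) and 17 by at least 1 (background 7.24%). With equal FPKM totals 28 members were lower by at least 0.5 in NCI-H1975, and 27 in both lines (background 11.6%). The NCI-H1975 library at 5 µM has a higher FPKM total than its control (575290 against 522573), so that scaling lowers all genes in it. The share of all genes beside the 28 is not given here. The HCC827 library at 5 µM, which has the larger changes, is also the one with the fewest genes listed at 0, and the part of this in the changes was not tested. None was higher by 0.5 in either line, against 7.68% of all genes in NCI-H1975 and 18% in HCC827.

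In the limma fit over both lines, no member passed an adjusted p of 0.05 at 5 µM, and 1 of the 11953 genes did (background 0.00837%). At an unadjusted p under 0.05, 34 members were lower (background 16.8%) and 0 higher (background 10%). The smallest adjusted p of a member was 0.1, shared by BRCA1, E2F8, FANCD2 and POLA2. The test has 2 residual degrees of freedom. Its p-values set a change against how far the lines disagreed over the doses, with that variance drawn toward the variance of other genes. Spread between replicates of a line does not enter. The fitted median of the members was -0.87 without the NCI-H1975 5 µM library and -0.42 without the HCC827 5 µM library. It was -0.77 and -0.44 without the DMSO library of NCI-H1975 and of HCC827. All genes had -0.11, -0.07, -0.09 and -0.09 in that order. The number of members passing moved in some of these fits. Each has a lone library in a group, assumed to vary like the others, so the counts are not given here.

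**Figure D1:**
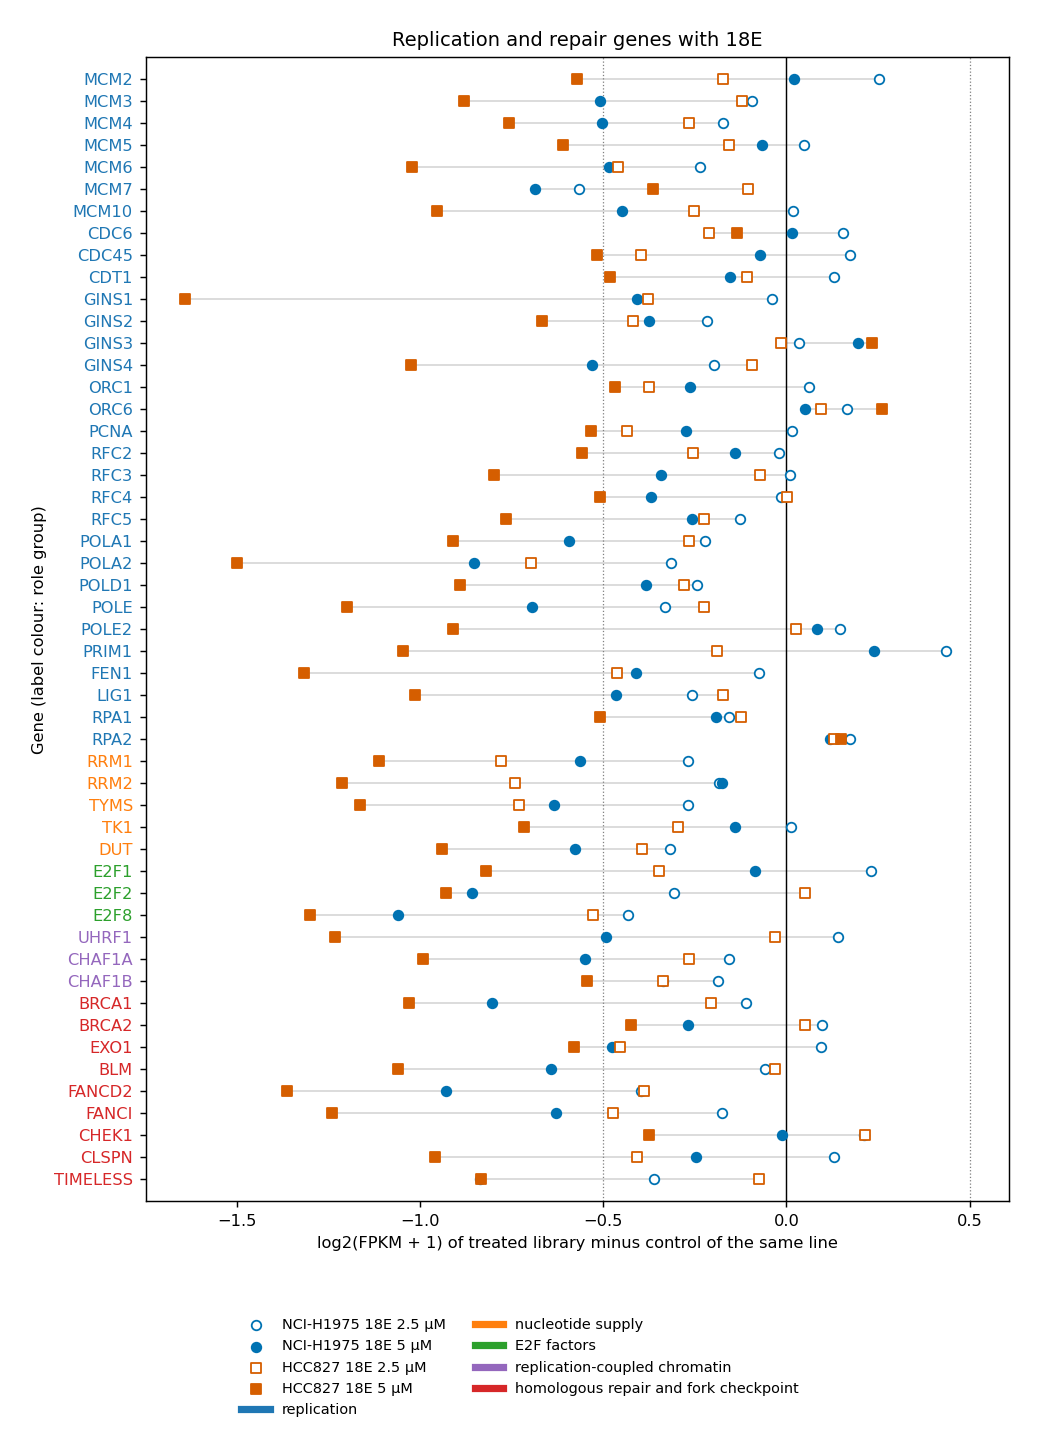
Change of each of the 51 genes with 18E (x axis, log2(FPKM + 1) minus the DMSO library of the same line; y axis, genes with names coloured by role). Each point is 1 library, circles for NCI-H1975 and squares for HCC827, open at 2.5 µM and filled at 5 µM, and dotted lines mark ±0.5; 42 of the 51 filled squares lie at or left of -0.5.

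The helicase genes were lower at 5 µM to unequal extents. MCM6, a helicase subunit, was at 76.4, 64.8 and 54.4 FPKM in NCI-H1975 with DMSO, 2.5 µM and 5 µM, and at 43.4, 31.3 and 20.9 FPKM in HCC827. MCM3, another subunit, was at 83.7, 78.3 and 58.5 FPKM in NCI-H1975 and at 53.7, 49.3 and 28.7 FPKM in HCC827. In both genes each dose lay below the one before it in both lines. At 5 µM the fitted changes over the lines were -0.75 ± 0.18 (SE) for MCM6 and -0.69 ± 0.17 for MCM3. MCM2, in the same ring, was at 75.7, 90.4 and 76.8 FPKM in NCI-H1975 and at 56.2, 49.8 and 37.5 FPKM in HCC827, so only HCC827 was low. MCM7 was the reverse in size, with 378, 255 and 234 FPKM in NCI-H1975 and, in HCC827, 222, 206 and 172 FPKM, changes of -0.69 and -0.36 at 5 µM. At that dose MCM4 stood at -0.50 and -0.76 and MCM5 at -0.07 and -0.61 in NCI-H1975 and HCC827. With equal FPKM totals or quantile normalization MCM2 was below control in NCI-H1975 too, at -0.12 or -0.03.

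The loading factors CDC6 and CDT1 and the origin recognition subunits ORC1 and ORC6 were within 0.5 of control in both lines at 5 µM, but with equal FPKM totals CDT1 was at -0.56 and ORC1 at -0.55 in HCC827. CDC6 was at 41.1, 45.8 and 41.5 FPKM in NCI-H1975 and at 52.8, 45.5 and 47.9 FPKM in HCC827, with no dose order in either line. ORC6 was at 25.9, 29.1 and 26.8 FPKM in NCI-H1975 and at 42.5, 45.4 and 51.1 FPKM in HCC827. It was 1 of 3 members above control in both lines at 5 µM, with the GINS subunit GINS3 and the RPA subunit RPA2 (background 25.5%). With each library scaled to the same FPKM total, GINS3 alone stayed above in both lines, and in NCI-H1975 ORC6 became -0.08 and RPA2 -0.02. ORC1 was at -0.26 and -0.47 and CDT1 at -0.15 and -0.48 in NCI-H1975 and HCC827.

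The 4 GINS subunits, which form 1 complex with a single copy of each, spread widely. GINS1 was at 16.8, 16.3 and 12.4 FPKM in NCI-H1975 and at 23.4, 17.7 and 6.81 FPKM in HCC827, where 29.1% of the control level was left at 5 µM. Its change in HCC827, -1.64, was the largest of all 51 members in any library. GINS3 was at 18.7, 19.2 and 21.5 FPKM in NCI-H1975 and at 19.0, 18.8 and 22.6 FPKM in HCC827. GINS4 stood at -0.53 and -1.03 and GINS2 at -0.37 and -0.67 at 5 µM, so 3 of the 4 subunits were low and 1 was not. CDC45, which joins GINS on the helicase, was at -0.07 and -0.52, and the initiation factor MCM10 at -0.45 and -0.95.

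At the fork, genes of polymerases alpha and epsilon were lower than control, with exceptions in NCI-H1975. POLA2, the accessory subunit of polymerase alpha, was at 26.6, 21.2 and 14.3 FPKM in NCI-H1975 and at 29.6, 17.9 and 9.83 FPKM in HCC827, a fitted change of -1.18 ± 0.20 at 5 µM (limma, adjusted p = 0.1). POLA1, the catalytic subunit, was at 11.1, 9.41 and 7.04 FPKM in NCI-H1975 and at 4.97, 3.96 and 2.18 FPKM in HCC827. For both genes each dose lay below the one before it in each line. PRIM1, the primase that works with them, was at 59.2, 80.4 and 70.0 FPKM in NCI-H1975 and at 26.3, 23.0 and 12.2 FPKM in HCC827, above control in one line and at 46.4% of it in the other at 5 µM. The catalytic subunit of polymerase epsilon, POLE, was at 7.45, 5.72 and 4.22 FPKM in NCI-H1975 and at 13.8, 11.7 and 5.45 FPKM in HCC827. Its partner POLE2 was at 13.7, 15.3 and 14.6 FPKM in NCI-H1975 and at 8.50, 8.67 and 4.06 FPKM in HCC827, low at 5 µM in HCC827 only.

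FEN1, which trims the flaps of lagging-strand fragments, was at 89.8, 85.3 and 67.3 FPKM in NCI-H1975 and at 80.8, 58.5 and 31.8 FPKM in HCC827. LIG1, which seals them, stood at -0.46 and -1.02 at 5 µM, and POLD1, the catalytic subunit of polymerase delta, at -0.38 and -0.89. The clamp PCNA was at 249.9, 253 and 207 FPKM in NCI-H1975 and at 175, 129 and 121 FPKM in HCC827. Its loader subunits RFC2 to RFC5 ranged from -0.14 to -0.37 in NCI-H1975 and from -0.51 to -0.80 in HCC827. RPA1 and RPA2, which coat unwound DNA as 1 complex, parted: RPA1 was at -0.19 and -0.51, and RPA2 at 0.12 and 0.15.

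The 5 nucleotide supply genes were all below control in both lines at 5 µM (background 40.8%). RRM1, the large subunit of ribonucleotide reductase, was at 68.8, 57.0 and 46.2 FPKM in NCI-H1975 and at 39.6, 22.7 and 17.8 FPKM in HCC827. RRM2, its small subunit, was at 130.2, 114 and 115 FPKM in NCI-H1975 and at 140.2, 83.6 and 60.0 FPKM in HCC827. TYMS, which makes thymidylate, was at 107, 88.5 and 68.4 FPKM in NCI-H1975 and at 74.4, 44.5 and 32.7 FPKM in HCC827. In HCC827 these 3 genes were already low at 2.5 µM, with changes of -0.78, -0.74 and -0.73. DUT, which removes dUTP, stood at -0.58 and -0.94 and TK1, which salvages thymidine, at -0.14 and -0.72 at 5 µM. TYMS shares 967 exon bases with ENOSF1 on the opposite strand, and RRM2 1077 with an unnamed gene on its own strand. The use of strand is not given, so reads of such pairs cannot be told apart, as also for FANCI with POLG (431 bases), MCM7 with AP4M1 (277 bases), FEN1 with TMEM258 (166 bases) and PRIM1 with HSD17B6 (123 bases). Unnamed genes on the same strand share 2012 bases with POLA2, 426 with POLD1 and 362 with PRIM1. Of the remaining members, 119 bases at most were shared, in FANCD2.

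**Figure D2:**
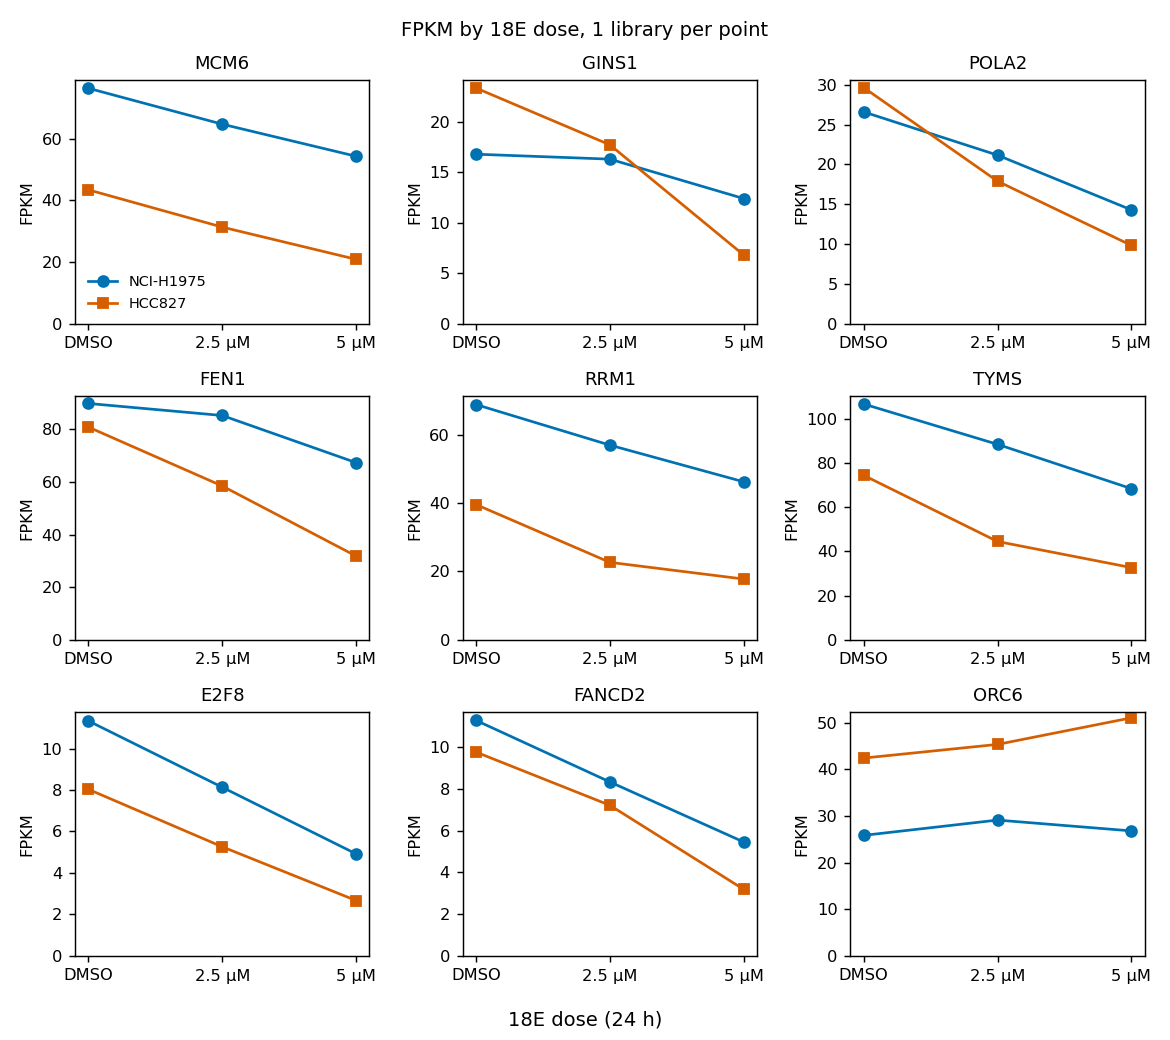
FPKM of 9 genes (y axes, linear from 0) by 18E dose (x axes) in NCI-H1975 (circles) and HCC827 (squares), 1 library per point and no error bars for want of replicates. GINS1 and POLA2 ended at 6.81 and 9.83 FPKM in HCC827, and ORC6 ended above its control in both lines.

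Among the E2F factors, E2F8, an atypical member that represses transcription, had the largest fitted change of all 51 genes at 5 µM, -1.18 ± 0.17, level with POLA2. It was at 11.3, 8.13 and 4.92 FPKM in NCI-H1975 and at 8.03, 5.26 and 2.67 FPKM in HCC827. E2F1, an activator, was at 26.2, 30.9 and 24.6 FPKM in NCI-H1975 and at 34.6, 26.9 and 19.1 FPKM in HCC827, a change of -0.09 and -0.82 at 5 µM. E2F2, a low-level activator, was at 3.40, 2.56 and 1.43 FPKM in NCI-H1975 and at 2.69, 2.82 and 0.94 FPKM in HCC827. Members with an E2F-type match (24) had a median fitted change of -0.65 at 5 µM and those without one (21) -0.44. With siDYN these medians were -0.15 and -0.16, and neither difference was tested.

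The chromatin genes acting behind the fork were low in both lines at 5 µM. UHRF1, which guides DNA methylation to copied strands, was at 55.4, 61.2 and 39.0 FPKM in NCI-H1975 and at 39.4, 38.6 and 16.2 FPKM in HCC827. CHAF1A and CHAF1B, subunits of a histone chaperone, stood at -0.55 and -0.99 and at -0.34 and -0.54.

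All 9 repair and checkpoint members were below control in both lines at 5 µM (background 40.8%), and 5 of the 9 by at least 0.5 in both (background 7.6%). CHEK1 in NCI-H1975 was level with control, at -0.013. With quantile normalization CHEK1 was at 0.045 and BLM at -0.488 in that line. FANCD2, which marks stalled forks at crosslinks, was at 11.3, 8.34 and 5.46 FPKM in NCI-H1975 and at 9.77, 7.22 and 3.19 FPKM in HCC827, a fitted change of -1.15 ± 0.19. FANCI, its partner, was at 22.6, 19.9 and 14.3 FPKM in NCI-H1975 and at 19.8, 13.99 and 7.81 FPKM in HCC827. BRCA1, which acts in the choice and repair of broken ends, was at 19.2, 17.7 and 10.6 FPKM in NCI-H1975 and at 11.2, 9.54 and 4.95 FPKM in HCC827. In BRCA1 the 2.5 µM library lay near control and most of the difference appeared between 2.5 and 5 µM. BLM, a helicase that resolves recombining strands, did likewise, with 7.87, 7.52 and 4.68 FPKM in NCI-H1975 and, in HCC827, 4.92, 4.79 and 1.84 FPKM. EXO1, which resects ends, stood at -0.48 and -0.58, and BRCA2, a homologous recombination factor, at -0.27 and -0.42 from control levels of 1.77 and 1.52 FPKM.

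The fork checkpoint genes were less uniform. TIMELESS, a fork protection factor, was at 29.8, 23.0 and 16.3 FPKM in NCI-H1975 and at 27.5, 26.1 and 15.0 FPKM in HCC827, changes of -0.84 and -0.83 at 5 µM that were nearly equal in the lines. CHEK1, the checkpoint kinase, was at 23.5, 27.3 and 23.2 FPKM in NCI-H1975 and at 17.3, 20.2 and 13.1 FPKM in HCC827, above control at 2.5 µM in both. CLSPN, the adaptor that presents CHEK1 to its activator, stood at -0.25 and -0.96.

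By role, the median fitted change at 5 µM was -0.51 for the 31 replication genes, -0.76 for the 5 nucleotide supply genes, -0.89 for the 3 E2F factors, -0.77 for the 3 chromatin genes and -0.83 for the 9 repair and checkpoint genes. At an unadjusted p under 0.05, 18 of 31, 4 of 5, 2 of 3, 3 of 3 and 7 of 9 were lower (background 16.8%) and 0 higher (background 10%). No test compared the groups with each other. The fitted median of all 51 was -0.60, with -0.09 for all genes.

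At 2.5 µM the differences were small. In NCI-H1975, 30 members were below control (background 51.6%) and 1, MCM7, was lower by at least 0.5 (background 3.91%). In HCC827, 44 were below control (background 47.3%) and 5 were lower by at least 0.5 (background 4.31%): POLA2, RRM1, RRM2, TYMS and E2F8. With equal FPKM totals 8 were, but that scaling lowers all genes in this library, and their share is not given here. None was lower by 1 (background 0.251% and 0.502%) or higher by 0.5 (background 4.28% and 6.53%) in NCI-H1975 or HCC827. No member was lower by 0.5 in both lines (background 0.619%). In limma, 0 members passed the adjusted threshold (background 0%) and 4 were lower at an unadjusted p under 0.05 (background 2.01%), namely POLA2, RRM1, TYMS and E2F8, with 0 higher (background 3.25%). The fitted median was -0.16, and it ranged from -0.33 without the NCI-H1975 DMSO library to -0.02 without the HCC827 DMSO library. The highest member was PRIM1 in NCI-H1975, at 0.44, and CHEK1 in HCC827, at 0.21.

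From 2.5 to 5 µM, 49 members were lower at the higher dose in NCI-H1975 (background 62.8%) and 47 in HCC827 (background 59.9%). Levels in the order DMSO above 2.5 µM above 5 µM were seen for 29 members in NCI-H1975 (background 36.7%), 42 in HCC827 (background 30.5%) and 27 in both (background 17.6%). The doses share the DMSO library, so these orders are not independent of the changes above. In the direct limma contrast of the doses, 0 members passed after adjustment (background 0%), with a smallest adjusted p of 0.41, and 21 were lower at an unadjusted p under 0.05 (background 8.05%) with 0 higher (background 3.71%). None of the 5 nucleotide supply genes was among the 21, while 5 of 9 repair and checkpoint genes were, FANCD2, FANCI, BRCA1, BLM and TIMELESS. All 5 nucleotide supply genes still had a fitted step below 0, and DUT was just past the threshold (limma, unadjusted p = 0.053). Their median step was -0.31, with -0.38 for the 31 replication genes and -0.61 for the 9. The groups were not tested against each other. Leaving out the NCI-H1975 5 µM library moved the count of members passing. That fit has a lone library at 5 µM, so its count is not given here.

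At 5 µM the change in HCC827 lay below that in NCI-H1975 for 46 of 51 members, against 52.1% of all genes. The exceptions were MCM7, GINS3, ORC6, RPA2 and TIMELESS. In the interaction test of line and 18E with doses pooled, 0 members passed (limma, smallest adjusted p 0.999) and 0 had an unadjusted p under 0.05 (background 0.895% lower and 0.82% higher). That test takes both doses of a line as replicates, so the step between doses enters its error. It does not test the difference at 5 µM alone. For GINS1 the difference in that test was -0.79 ± 0.78, where its fitted change at 5 µM had an SE of 0.31.

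**Figure D3:**
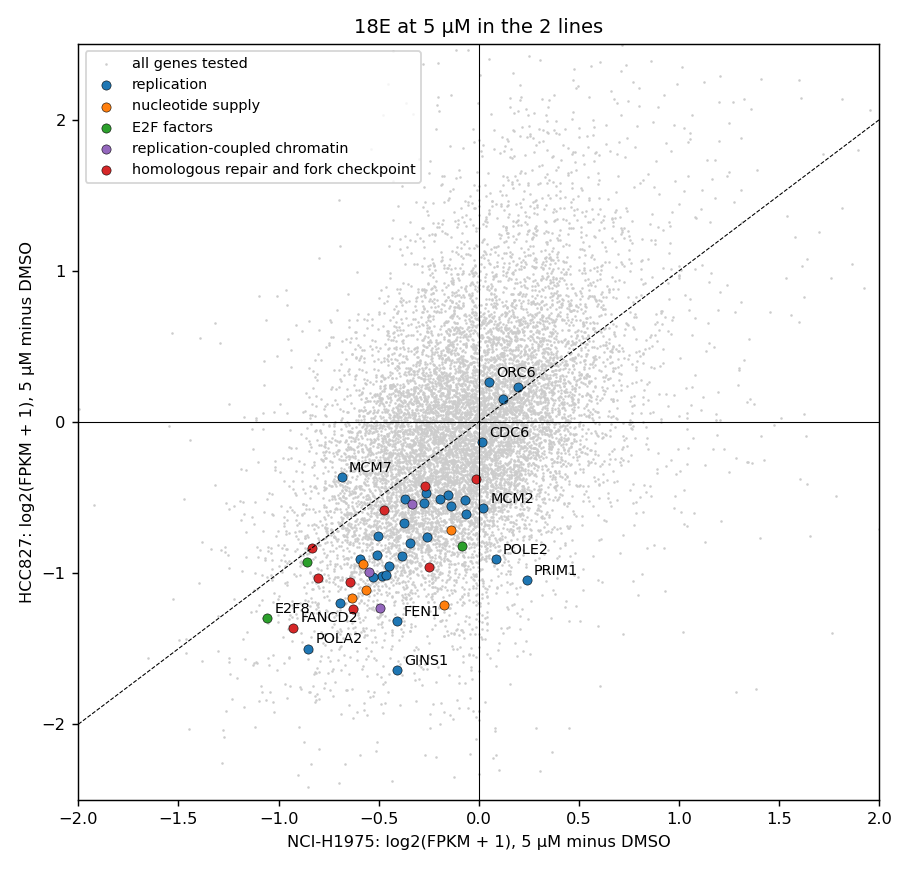
Change at 5 µM in HCC827 (y axis) against NCI-H1975 (x axis), both as log2(FPKM + 1) minus DMSO, with 1 point per gene, members coloured by role over all tested genes in grey (161 of the 11953 lie outside the axes). The dashed line marks equal change; 46 of the 51 members lie below it.

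Transcript length moved with the change at 5 µM. Across the 51 members Spearman's rho with the median annotated transcript length was -0.51 in NCI-H1975 and -0.35 in HCC827, and across all 11650 genes with a length it was -0.38 and -0.11. These points share their libraries, and genes are not independent replicates. The 25 members longer than 3157 bases had a median change of -0.48 in NCI-H1975, where longer genes overall had -0.25, and -0.99 in HCC827, where these had -0.19. The 26 at or under that length had -0.26 and -0.69, with 0.02 and -0.06 for shorter genes overall. With siDYN, rho across all genes was -0.32 for siDYN-1 and -0.37 for siDYN-2 in NCI-H1975, -0.33 and -0.23 for the same siRNAs in HCC827, and across the 50 members -0.07, -0.21, -0.34 and -0.30 in that order. At 5 µM the members' medians lay below those of all genes in both length classes and both lines. Lengths still vary within a class, and the part of length in the changes was not tested.

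Genes of the same pathways outside the 51 were read from lists of similar function. Of 29 other replication fork genes, 8 were lower and 0 higher at an unadjusted p under 0.05 at 5 µM (0 adjusted), and the median was -0.16. Over all genes 16.8% were lower and 10% higher at that threshold, which is the background for each of these lists at 5 µM, and the median was -0.09. WDHD1, a fork scaffold, was at 10.7, 9.32 and 6.94 FPKM in NCI-H1975 and at 10.4, 8.42 and 3.31 FPKM in HCC827, and TICRR, an initiation factor, had a fitted change of -0.94 ± 0.22. Of 22 other nucleotide supply genes, 5 were lower and 0 higher (median -0.20), a share near the 16.8% of all genes. SHMT1, a serine hydroxymethyltransferase that supplies one-carbon units, had a fitted change of -0.94 ± 0.16. Of 9 other chromatin genes, 4 were lower and 0 higher (median -0.37), with the maintenance methyltransferase DNMT1 at -0.86 ± 0.16.

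Of 32 other homologous repair and checkpoint genes, 12 were lower at 5 µM at an unadjusted p under 0.05 (background 16.8%) and 0 higher (background 10%), with 0 adjusted and a median of -0.46. XRCC2, a homologous recombination factor, was at 15.5, 14.8 and 8.69 FPKM in NCI-H1975 and at 8.08, 8.07 and 2.44 FPKM in HCC827. BARD1, the partner of BRCA1, was at 6.81, 5.75 and 3.95 FPKM in NCI-H1975 and at 7.07, 4.90 and 2.32 FPKM in HCC827. In the E2F and RB circuit, 8 of 24 genes were lower (background 16.8%) and 4 higher (background 10%) at an unadjusted p under 0.05, with 0 adjusted and a median of -0.08. Higher was CDKN1A (p21), an inhibitor of the kinases that free E2F, at 14.9, 25.2 and 51.7 FPKM in NCI-H1975 and at 7.05, 18.2 and 97.2 FPKM in HCC827. CCNE1 (cyclin E1), itself an E2F target, had a fitted change of 1.26 ± 0.24, and RBL2 (p130), a pocket protein that binds E2F factors, was at 13.8, 9.48 and 5.85 FPKM in NCI-H1975 and at 11.2, 9.05 and 4.11 FPKM in HCC827.

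With the siDYN siRNAs the members did not share 1 direction. Below siCON were 45 of the 50 tested in NCI-H1975 with siDYN-1 (background 51.2%), 30 with siDYN-2 (background 46.9%), and 35 (background 52.9%) and 32 (background 47.1%) in HCC827. Of 50 tested, 22 were below siCON in all 4 siDYN libraries (background 25.6%) and 3 above in all 4 (background 24.9%). Below in all 4 were 29 with equal FPKM totals (background 33.7%) and 26 with quantile normalization (background 26.6%). Above in all 4 were 2 under each (background 17.2% and 22.8%). POLA1 was the 1 member lower by at least 0.5 in all 4 (background 1.49%), and none was higher by 0.5 in all 4 (background 2.12%). With equal FPKM totals BLM was also lower by at least 0.5 in all 4. The median changes were -0.41 in NCI-H1975 with siDYN-1, -0.05 with siDYN-2, and -0.08 and -0.11 in HCC827, with medians of all genes between -0.03 and 0.03. The siDYN-2 medians became -0.20 in NCI-H1975 and -0.18 in HCC827 with equal FPKM totals, and -0.13 and -0.16 with quantile normalization. Lower by at least 0.5 were 17 members in NCI-H1975 with siDYN-1 (background 13%), 10 with siDYN-2 (background 17.6%), and 3 (background 7.84%) and 6 (background 9.63%) in HCC827. With equal FPKM totals 27 were lower by at least 0.5 in NCI-H1975 with siDYN-1 and 5 in HCC827 with siDYN-1. That scaling lowers all genes in both libraries, and the share of all genes under it is not given here. Lower by at least 1 was POLA1 with siDYN-2 in NCI-H1975 (background 4.05%), and no member was in the other siDYN libraries (background 1.21% for siDYN-1 in NCI-H1975, 0.734% and 1.19% in HCC827). Higher by at least 0.5 were 0 (background 11.4%), 6 (background 19.5%), 1 (background 8.27%) and 3 (background 14.8%).

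In the limma fit of both siRNAs and lines, 0 members passed the adjusted threshold (background 0%), with a smallest adjusted p of 0.0981 for POLA1. At an unadjusted p under 0.05, 10 were lower (background 13.4%) and 2 higher (background 12.6%). The fitted median was -0.17, with 0.01 for all genes. It was -0.07 without the NCI-H1975 siDYN-1 library.

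**Figure D4:**
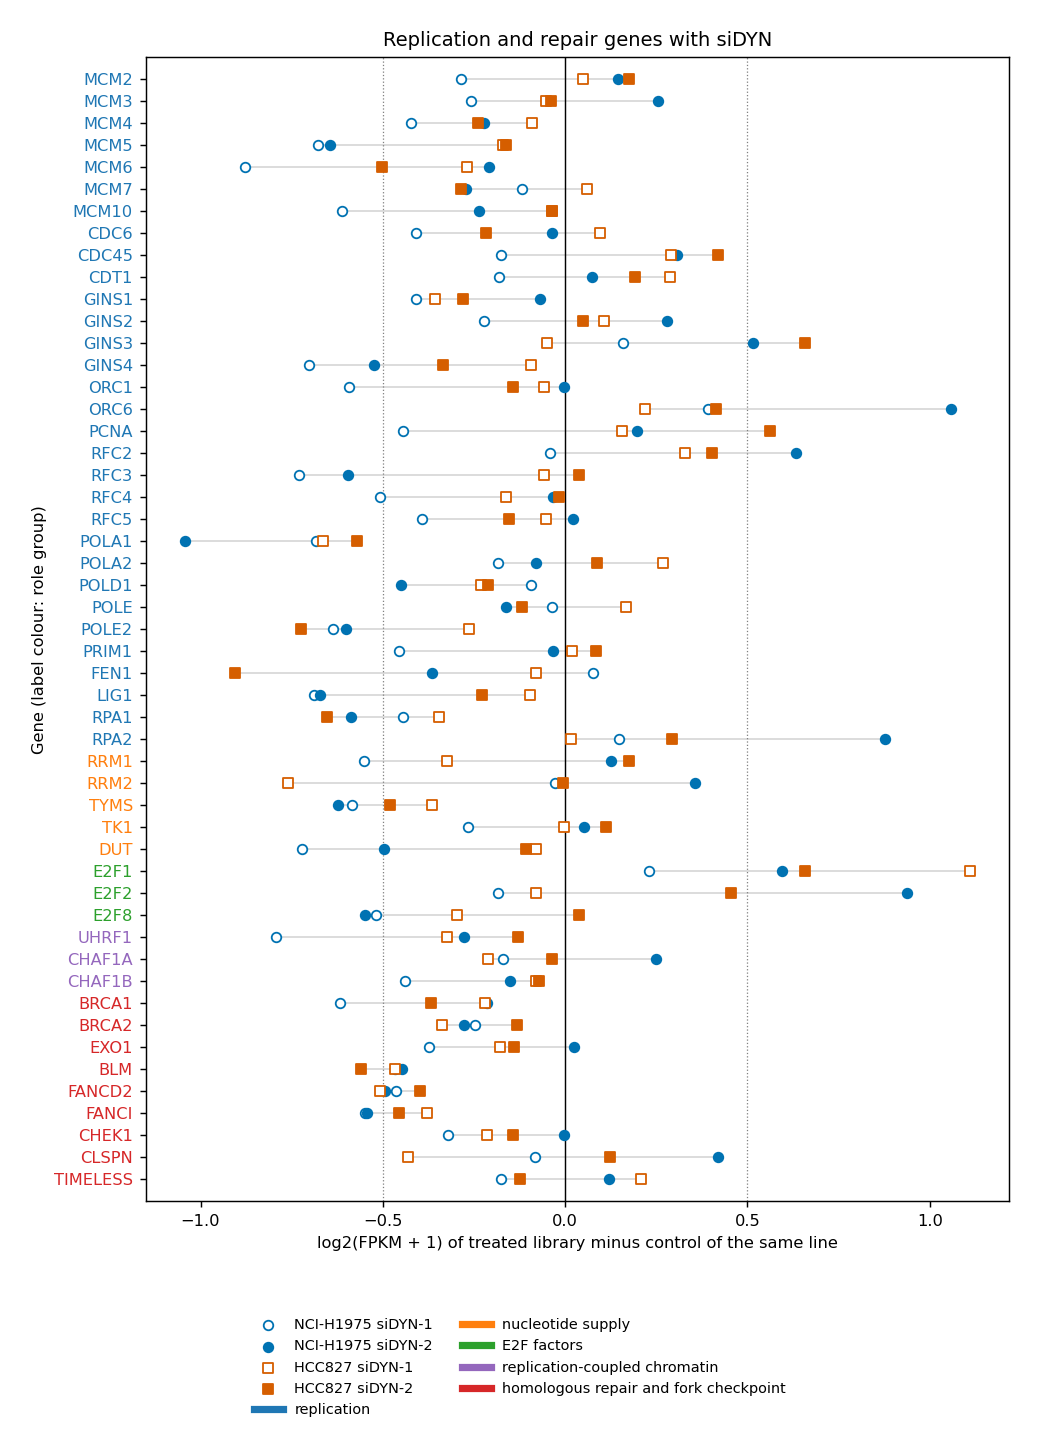
Change of each gene with siDYN (x axis, log2(FPKM + 1) minus the siCON library of the same line; y axis, genes with names coloured by role). Each point is 1 library, circles for NCI-H1975 and squares for HCC827, open for siDYN-1 and filled for siDYN-2; POLA1 lies left of -0.5 in all 4 libraries and E2F1 right of 0 in all 4, and BRCA2 is drawn although it was below the filter.

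POLA1 was at 5.16, 2.84 and 1.99 FPKM in NCI-H1975 with siCON, siDYN-1 and siDYN-2, and at 2.91, 1.47 and 1.63 FPKM in HCC827, a fitted change of -0.74 ± 0.16. POLE2 was at 13.6, 8.40 and 8.65 FPKM in NCI-H1975 and at 9.82, 8.02 and 5.55 FPKM in HCC827. RPA1 was at 46.1, 33.6 and 30.4 FPKM in NCI-H1975 and at 75.3, 59.0 and 47.5 FPKM in HCC827. In these 3 genes every siDYN library lay below its control. TYMS also did, at 66.5, 44.0 and 42.8 FPKM in NCI-H1975 and at 70.1, 54.2 and 50 FPKM in HCC827, a fitted change of -0.51 ± 0.13. The 3 Fanconi and recombination genes with an unadjusted p under 0.05 were close to each other, with fitted changes of -0.47 ± 0.14 for FANCD2, -0.48 ± 0.13 for FANCI and -0.49 ± 0.13 for BLM. FANCD2 was at 5.25, 3.53 and 3.44 FPKM in NCI-H1975 and at 4.43, 2.82 and 3.12 FPKM in HCC827.

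Higher in all 4 siDYN libraries were ORC6, RPA2 and E2F1. E2F1 was at 24.9, 29.3 and 38.1 FPKM in NCI-H1975 and at 21.7, 48.0 and 34.8 FPKM in HCC827, a fitted change of 0.65 ± 0.20. ORC6 was at 23.6, 31.3 and 50.3 FPKM in NCI-H1975 and at 47.4, 55.4 and 63.6 FPKM in HCC827. RPA2 was at 56.4, 62.7 and 104 FPKM in NCI-H1975 and at 46.5, 47.0 and 57.2 FPKM in HCC827, and with equal FPKM totals its change in HCC827 with siDYN-1 became -0.09. ORC6 and E2F1 stayed above in all 4 with equal totals and with quantile normalization.

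The siRNAs differed from each other in several members. In NCI-H1975, 16 members were below siCON with siDYN-1 and above it with siDYN-2 (background 12.8%). Among them were the helicase subunits MCM2 and MCM3, PCNA and both subunits of ribonucleotide reductase, RRM1 and RRM2. With equal FPKM totals 9 were (background 12.9%), and MCM2 and RRM1 were no longer among them. With quantile normalization 11 were (background 10.9%), without MCM2 and PCNA. In HCC827 7 members had that pattern (background 17.5%). PCNA was at 214, 157 and 245 FPKM in NCI-H1975 and at 148, 166 and 219.7 FPKM in HCC827. RRM2 was at 78.0, 76.5 and 99.99 FPKM in NCI-H1975 and at 109.2, 64.1 and 108.7 FPKM in HCC827, low in 1 library only. FEN1 was at 66.2, 69.8 and 51.1 FPKM in NCI-H1975 and at 83.5, 78.9 and 44.1 FPKM in HCC827, low with siDYN-2 in both lines and near control with siDYN-1. MCM6 was at 53.9, 28.9 and 46.5 FPKM in NCI-H1975 and at 33.8, 27.8 and 23.5 FPKM in HCC827. The siRNAs share their siCON library in each line, and the difference between them was not tested. In the interaction of line and siDYN, 0 members passed (limma, smallest adjusted p 1.0) and 0 had an unadjusted p under 0.05 (background 0.674% lower and 0.845% higher).

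Outside the 51, 8 of 29 other fork genes were lower and 1 higher with siDYN at an unadjusted p under 0.05 (0 adjusted). Over all genes 13.4% were lower and 12.6% higher at that threshold, the background for each list in turn. TOPBP1, which activates initiation and the checkpoint kinase ATR, was at 13.0, 5.63 and 4.21 FPKM in NCI-H1975 and at 8.65, 6.50 and 5.87 FPKM in HCC827. Of the other repair and checkpoint genes 10 of 32 were lower and 2 higher, and the mitotic brake WEE1 was at 10.0, 4.92 and 4.08 FPKM in NCI-H1975 and at 5.84, 2.82 and 3.38 FPKM in HCC827. Of 9 other chromatin genes 4 were lower and 0 higher, and of 22 other nucleotide supply genes 5 were lower and 3 higher. In the E2F and RB circuit 5 of 24 were lower and 4 higher, with CDKN1A at 39.2, 94.0 and 67.4 FPKM in NCI-H1975 and at 10.2, 29.2 and 36.5 FPKM in HCC827.

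Side by side, the fitted changes of some members were alike in the experiments and those of others were not. POLA1 was at -0.75 ± 0.18 with 18E at 5 µM and -0.74 ± 0.16 with siDYN, and TYMS at -0.90 ± 0.18 and -0.51 ± 0.13. POLA2 was at -1.18 ± 0.20 and 0.02 ± 0.15, GINS1 at -1.03 ± 0.31 and -0.28 ± 0.15, and E2F1 at -0.45 ± 0.22 and 0.65 ± 0.20. ORC6 and RPA2 had fitted changes above 0 in both experiments, 0.16 ± 0.16 and 0.13 ± 0.14 with 18E and 0.52 ± 0.22 and 0.33 ± 0.23 with siDYN. Those with 18E were no larger than their SE. With equal FPKM totals ORC6 (-0.08) and RPA2 (-0.02) were below control in NCI-H1975 at 5 µM, and RPA2 (-0.09) in HCC827 with siDYN-1. The genes set side by side here were picked after their values were seen. The tables were normalized separately with other times of treatment, and the difference between experiments was not tested.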

How the data were processed

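Per the labels' protocols, RNA came from Trizol extraction and libraries from a TruSeq kit. Each experiment has 1 table of FPKM values deposited by the authors. Per the submitters' processing notes, which state no roles, Bowtie 0.12.2 was used with GRCh38.p12 and mm8; the annotation, any use of strand and how FPKM were computed were not given in the sources used here. With 18E, 20 genes without NCI-H1975 values and 20 lines of spilled text were left out, and with siDYN 20 such lines. Low values showed no steps of whole reads, so depth is unknown.

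Values became log2(FPKM + 1) with a pseudocount of 1, and genes reaching 1 FPKM in 2 or more of 6 libraries were tested with limma 3.58.1 (R 4.3.3; trend, two-sided, Benjamini-Hochberg over all genes tested) with cell line as a block. The lines, doses or siRNAs stand in for replicates, and nothing says that a line was cultured more than once. The fit was also run on simulated data, with shifts larger than any member's fitted change and less noise than the members showed. That run does not show how well changes of the members' size are found. Coordinates, lengths and exon overlaps are from GENCODE 29, and promoters from RefSeq.

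Named genes were all members and, from each other list, up to 3 genes with the largest fitted change at 5 µM and up to 2 with siDYN; some genes of these lists are not reported here. The members and lists were chosen with earlier results of these data known. Alternatives were a pseudocount of 0.1, no filter, equal FPKM totals, quantile normalization, a fit without the cell line term, one without the variance trend, and each library left out.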

Additional observations from a re-analysis of the deposited data

Results flagged for a closer look

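In 3 members both 18E libraries of NCI-H1975 lay above DMSO and both of HCC827 below it. The share of all genes with this pattern is not given here, so the count is not a result about the members. The mean change in HCC827 minus that in NCI-H1975 was -0.51 for MCM2, -0.26 for CDC6 and -0.96 for PRIM1. In 2 members, again without a share of all genes, both siDYN libraries of NCI-H1975 lay below siCON and both of HCC827 above it. The difference was 0.31 for POLA2 and 0.30 for PRIM1. None of these differences passed the interaction test (limma, adjusted p = 0.999 for the 18E cases and 1.0 for the siDYN cases); that test treats both doses, or both siRNAs, of a line as its replicates. With equal FPKM totals MCM2 and CDC6 were below DMSO at 5 µM in NCI-H1975 too (-0.12 each), PRIM1 stayed above (0.10), and PRIM1 with siDYN-1 in HCC827 was below siCON (-0.09).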

How the results depend on the processing

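With each library left out in turn, the number of members past the adjusted threshold ranged from 0 to 38 at 5 µM and from 0 to 28 for the step between doses, and the fitted median at 2.5 µM from -0.328 to -0.016. With equal FPKM totals, members lower by at least 0.5 numbered 28 in NCI-H1975 at 5 µM and 8 in HCC827 at 2.5 µM. With siDYN-1 they numbered 27 in NCI-H1975 and 5 in HCC827, the last also 5 with a pseudocount of 0.1. Equal totals lower all genes in each of these libraries, and the shares of all genes beside these counts are not given here. The siDYN-2 medians were -0.203 in NCI-H1975 and -0.176 in HCC827 with equal totals, and -0.126 and -0.164 with quantile normalization. Equal totals moved the median of all genes from -0.074 to -0.186 in NCI-H1975 at 5 µM, from 0.030 to -0.089 in NCI-H1975 with siDYN-2 and from -0.014 to -0.117 with siDYN-1. Members lower by at least 0.5 in both lines at 5 µM numbered 27 of 51 with equal totals (background 11.6%) and 16 with quantile normalization (background 5.38%), against 17. Another 148 values of this kind kept their side or stayed within the spread, and no member with an unadjusted p under 0.05 changed sign at either dose or with siDYN under the alternatives run. The interaction tests without a control library could not be fitted. No paired analysis was possible because each group holds 1 library; the line served as the block, and without it the count of members past the adjusted threshold stayed 0. Without counts, the depth behind low values such as those of BRCA2 and E2F2 is unknown.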

Other observations

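Of 32 genes of end joining and excision repair, 6 were lower with 18E at 5 µM at an unadjusted p under 0.05 (limma, 0 adjusted), a share near the 16.8% of all genes, and 1 was higher, where 10% of all genes were. The median was -0.20. PRKDC, the catalytic subunit of the DNA-dependent kinase that joins broken ends, was at 21.5, 17.7 and 11.1 FPKM in NCI-H1975 with DMSO, 2.5 µM and 5 µM and at 23.5, 19.9 and 6.29 FPKM in HCC827. XRCC4, which works with the end-joining ligase, was the gene that was higher, at 19.1, 28.97 and 34.5 FPKM in NCI-H1975 and at 11.1, 13.3 and 21.8 FPKM in HCC827. With siDYN, 4 of the 32 were lower and 2 higher (0 adjusted, median -0.17), near or below the 13.4% and 12.6% of all genes. PRKDC was at 11.9, 6.03 and 3.97 FPKM in NCI-H1975 with siCON, siDYN-1 and siDYN-2 and at 13.5, 9.12 and 6.88 FPKM in HCC827. MSH6, a mismatch repair factor, had a fitted change of -0.50 ± 0.14 with siDYN. Whether these lists differ from the homologous repair genes was not tested.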
